A study of Mus musculus with 21 samples.

Results

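Ribosomal proteins are the protein subunits of the ribosome, and a cell carries separate sets for its cytosolic and its mitochondrial ribosomes. The genes described here are the protein-coding genes whose symbols follow the Rpl and Rps pattern, with Rplp0 to Rplp2 and Rpsa, for the cytosolic ribosome, and the Mrpl and Mrps pattern for the mitochondrial one. Pseudogenes and the ribosomal S6 kinases were left out. The rule uses symbols only and found 161 of the 51201 genes in the deposited tables, 83 cytosolic and 78 mitochondrial. Both names were checked only as symbols, since the data hold no measure of where a protein sits.

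Cytosolic ribosomes translate the mRNAs that leave the nucleus, and many of their protein mRNAs start with a C followed by a run of pyrimidines, the terminal oligopyrimidine start through which the kinase mTOR and the RNA-binding protein Larp1 control their translation. Mitochondrial ribosomes translate only the few mRNAs of the mitochondrial genome, which encode subunits of the respiratory chain and the ATP synthase, yet all of their own proteins are encoded in the nucleus and imported. T cells raise the production of both kinds of ribosome when they leave rest and begin to grow and divide.

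RNA was sequenced from T cells that had been purified from the spleens of C57BL/6J mice at postnatal day 35. Mice of the genotype L-gp130fl/+;CD4Cre+/-, called L-gp130 here, carry a conditional allele of L-gp130, a constitutively active form of the cytokine receptor chain gp130, and a Cre recombinase driven by the Cd4 promoter. Controls carry CD4Cre+/- alone, so both genotypes have the Cre. Cd4-driven Cre acts in the thymus at a stage when T cells express both coreceptors, so CD4+ and CD8+ cells both descend from cells exposed to it. The 4 groups were L-gp130 CD4+ cells with 6 libraries, control CD4+ cells with 6, L-gp130 CD8+ cells with 3 and control CD8+ cells with 6. Magnetic beads picked out the CD4+ cells themselves, whereas CD8+ cells were enriched by removing other cells, so the way of selection goes with the cell type in every comparison between cell types. The libraries of a group are numbered by mouse, and the labels do not say whether a mouse gave both cell types.

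The estimated gene counts of a library summed to between 17781085 and 21226510 in L-gp130 CD4+, 27855757 and 35869208 in control CD4+, 17217364 and 19476881 in L-gp130 CD8+ and 17719183 and 19286396 in control CD8+ cells. Labelled sex was uneven, with 4 males of 6 in L-gp130 CD4+ cells against 1 of 6 in control CD4+ cells, and 2 of 3 in L-gp130 CD8+ cells against 4 of 6 in control CD8+ cells, and the labelled sex was a term in every fit. In 1 of 21 libraries the reads of sex-linked genes went against the label. L-gp130 CD4+ replicate 1 stood apart on the second principal component, as did control CD8+ replicates 1 to 3 from control CD8+ replicates 4 to 6. The T cell markers were detected in all groups, and summed to 2922 to 3212 TPM (a transcript's share of all transcripts of its library, corrected for length) in L-gp130 CD8+ cells, against 3358 to 3987 TPM in control CD8+ cells. Erythroid markers summed to 22852 to 114960 TPM in L-gp130 CD4+ cells and 16727 to 87410 TPM in control CD4+ cells, and to 139 to 353 TPM in L-gp130 CD8+ cells and 122 to 2291 TPM in control CD8+ cells.

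The sequences at the starts of these genes are given first, because a pyrimidine start is the feature through which the translation of cytosolic members is known to be controlled. RefSeq starts on GRCm38.p6 could be matched for 63 cytosolic and 69 mitochondrial members and for 27025 genes in all. A start on a C followed by at least 4 pyrimidines was annotated for 13 cytosolic members (20.6%), no mitochondrial member (0.0%) and 3.01% of all genes. The share depends on where the annotation places the start, to the base. The lines that follow give 30 bases around the start, 15 before it and 15 from it, in the direction of the gene, for members whose values are described further on. Capitals mark the C and its pyrimidine run, and the members with no capitals have no such run at this annotated start.
Rpl35a: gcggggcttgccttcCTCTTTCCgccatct
Rps18: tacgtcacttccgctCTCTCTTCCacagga
Rpl15: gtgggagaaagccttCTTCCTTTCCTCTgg
Rps27: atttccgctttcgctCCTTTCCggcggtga
Rps13: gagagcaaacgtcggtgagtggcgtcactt
Rps27l: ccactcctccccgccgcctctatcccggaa
Mrpl52: tgccggggccacgcccacttccggttccct
Mrps6: tgctttcgccgtccgggagctgaccggccg
The windows lie at chr16:33056467-33056496 on the plus strand for Rpl35a, at chr17:33955651-33955680 on the minus strand for Rps18, at chr14:18270972-18271001 on the minus strand for Rpl15 and at chr3:90213634-90213663 on the minus strand for Rps27. Those of Rps13 at chr7:116334176-116334205 on the minus strand, Rps27l at chr9:66946071-66946100 on the plus strand, Mrpl52 at chr14:54426894-54426923 on the plus strand and Mrps6 at chr16:92058321-92058350 on the plus strand hold none. The Rpl35a window belongs to 1 of 3 annotated starts of that gene, and the Rps27l window to 1 of 2.

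A different motif was shared by both sets. The letters CCGGAAG, the core that ETS family factors recognise, occurred on either strand in the 300 bases around the start in 41.3% of cytosolic and 37.7% of mitochondrial members, against 9.93% of all genes. CACGTG, the E-box bound by MYC among others, occurred in 9.52% of cytosolic and 7.25% of mitochondrial members, against 8.09% of all genes. TTCNNNGAA, the palindrome bound by STAT factors downstream of gp130, occurred in 4.76% of cytosolic and 8.7% of mitochondrial members, against 9.55% of all genes. All 3 were searched on both strands, and a match describes these letters, not a bound site. The 100 bases before the start of Mrpl52 and Rps3a1 show the CCGGAAG core in capitals, in the reverse direction in Mrpl52.
Mrpl52: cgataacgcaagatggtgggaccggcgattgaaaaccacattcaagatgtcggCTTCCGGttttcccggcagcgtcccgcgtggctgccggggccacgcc
Rps3a1: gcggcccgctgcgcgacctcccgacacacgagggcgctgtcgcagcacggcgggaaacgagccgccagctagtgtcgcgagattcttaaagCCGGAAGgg
They lie at chr14:54426809-54426908 on the plus strand and at chr3:86142669-86142768 on the minus strand.

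The mRNAs of the cytosolic set were far more abundant than those of the mitochondrial set in every library. As means over the 21 libraries, the median cytosolic member had 2698 TPM, a level per length of transcript, and the median mitochondrial member 41.3 TPM. Of the cytosolic members 70 lay above 1000 TPM by that mean, and the 3 most abundant were Rplp1, a protein of the ribosomal stalk, at 9966 TPM, Rpl13a at 9665 TPM and Rps29 at 6378 TPM. The order of the first 2 depended on the cell type: Rpl13a averaged 8667 TPM and Rplp1 7256 TPM in L-gp130 CD4+ cells, and 9530 and 8410 TPM in control CD4+ cells, whereas Rplp1 was above Rpl13a in both CD8+ groups. Mitochondrial members lay between 8.26 and 389 TPM, and the 3 most abundant were the large-subunit proteins Mrpl52 at 389 TPM, Mrpl33 at 209 TPM and Mrpl24 at 176 TPM. In CD4+ cells the small-subunit protein Mrps21 came second after Mrpl52, at 201 TPM in L-gp130 and 165 TPM in control cells, with Mrpl33 close to it at 191 and 159 TPM.

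On average the cytosolic members together held a smaller share of all TPM in L-gp130 than in control libraries, and the mitochondrial members a larger one. In CD8+ cells the cytosolic share was 25.1%, 26.2% and 23.5% in the 3 L-gp130 libraries, against a lowest value of 26.7%, a median of 27.6% and a highest of 28.9% in the 6 control libraries. The groups did not overlap. They did overlap when the share was taken over nuclear-encoded coding genes without haemoglobin, at 29.3% to 32.0% in L-gp130 and 31.9% to 35.0% in control cells. In CD4+ cells the lowest, median and highest cytosolic shares were 16.4%, 17.3% and 20.5% in L-gp130 libraries and 19.2%, 19.8% and 21.4% in control libraries, which overlapped.

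The mitochondrial share was on average larger in L-gp130 libraries of both cell types. It was 0.469%, 0.449% and 0.419% of TPM in the L-gp130 CD8+ libraries, against 0.381%, 0.395% and 0.412% as the lowest, median and highest of the control CD8+ libraries. In CD4+ cells the lowest, median and highest shares were 0.389%, 0.408% and 0.447% in L-gp130 and 0.359%, 0.376% and 0.387% in control libraries. The groups did not overlap in either cell type, and in the shares of gene counts they overlapped in CD8+ cells only. Mrpl52, the most abundant mitochondrial member, averaged 438 TPM in L-gp130 and 299 TPM in control CD4+ cells. In CD8+ cells it averaged 518 and 367 TPM in the same order. The shares without Mrpl52 were not worked out.

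Set against each other, the mitochondrial members had 1.79 ± 0.0745 TPM for every 100 cytosolic TPM in L-gp130 CD8+ cells (SD, n = 3) and 1.44 ± 0.0621 in control CD8+ cells (SD, n = 6), with no overlap. In CD4+ cells the ratio was 2.28 ± 0.196 in L-gp130 and 1.88 ± 0.106 in control libraries (SD, n = 6 each), with an overlap at the edges (1.95 to 2.51 in L-gp130 against 1.68 to 1.997 in control libraries). No p-value is given for shares and ratios, which are scores over the members. In the pooled RNA of purified cells, fewer cells of a type and less RNA per cell cannot be told apart, and a share falls whenever other genes rise.

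**Figure D1:**
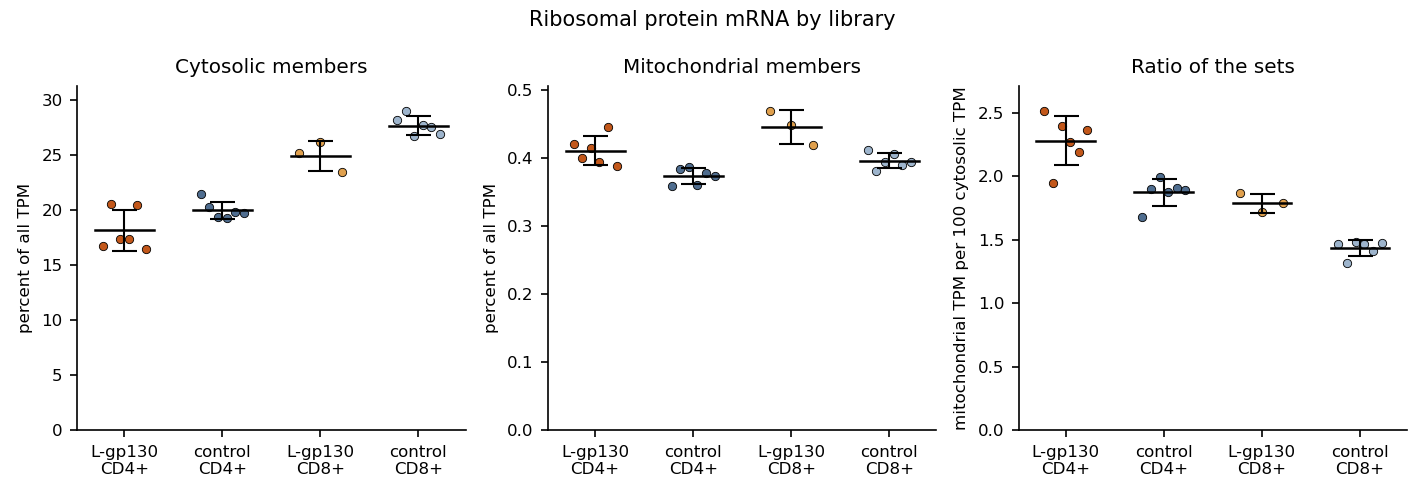
Share of all TPM held by the cytosolic members and by the mitochondrial members, in percent, and mitochondrial TPM for every 100 cytosolic TPM, for each of the 21 libraries; points are libraries and bars group means with SD. The L-gp130 CD8+ libraries lie below the control CD8+ libraries for the cytosolic share and above them for the ratio, and CD8+ libraries lie above CD4+ libraries for the cytosolic share.

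In CD8+ cells the transcripts of cytosolic ribosomal proteins were lower in L-gp130 mice as a broad group, and a few mitochondrial ones were higher. Counts were tested with edgeR's quasi-likelihood test over all genes, called at a Benjamini-Hochberg adjusted p under 0.05, with log2 fold changes of L-gp130 over control and their standard errors (SE). Of 81 cytosolic members tested, 41 fell and 1 rose, where 10.5% of all 14254 genes fell and 10.5% rose. The median log2 fold change of the cytosolic members was -0.17, against -0.01 for all genes, and 72 of the 81 lay below zero. The changes were small, from -0.43 to -0.16 on the log2 scale among the 41. Groups did not overlap for 33 of the cytosolic members in the lower direction, where 12.4% of all genes had that pattern, and for 1 in the higher direction, where 11.7% had it. Both subunits took part, with 20 of 32 small-subunit and 21 of 49 large-subunit members that fell.

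The small-subunit proteins led by adjusted p. Rps24, which takes part in the processing of ribosomal RNA and is mutated in some families with Diamond-Blackfan anaemia in humans, had 1755, 1874 and 1631 CPM (counts scaled to the library total and normalised by TMM) in L-gp130 CD8+ libraries, against 2056, 2214 and 2355 CPM as the lowest, median and highest control value. Every L-gp130 library lay below every control library, with a log2 fold change of -0.35 (SE 0.05, adjusted p = 0.00122). Rps19, the protein most often mutated in that anaemia, had 1130, 1196 and 1158 CPM in L-gp130 CD8+ cells, against 1362, 1492 and 1589 CPM in control CD8+ cells, with no overlap (log2 fold change -0.34, adjusted p = 0.00154). Rps3a1, whose upstream sequence is shown above, fell by 0.32 on the log2 scale (adjusted p = 0.00142), and Rps3, which lies where the mRNA enters the ribosome, fell by 0.35 (adjusted p = 0.00187). Rps18, a small-subunit protein whose pyrimidine start is shown above, fell by 0.16 (adjusted p = 0.0459). Its call ended in 8 of the 9 fits that left out a library.

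Among large-subunit members Rpl35a had the lowest fold change of the called ones. It had 721.9, 800.1 and 598.7 CPM in L-gp130 CD8+ libraries, against 886.7, 948.7 and 1060 CPM as the lowest, median and highest control CD8+ value, with no overlap (log2 fold change -0.43, SE 0.066, adjusted p = 0.00161). Rpl30 fell by 0.37 (adjusted p = 0.00939) and Rpl13a, which in human cells also acts in an interferon-induced complex that silences mRNAs, fell by 0.35 (adjusted p = 0.00701). Rpl22, which mouse αβ T cells need to develop, fell by 0.22 (adjusted p = 0.0248), a call that ended in 4 of the 9 fits that left out a library. Rplp1, the most abundant member in CD8+ cells, was just outside the threshold at -0.18 (adjusted p = 0.05).

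The only cytosolic member that rose in CD8+ cells was Rps27l, a small-subunit paralog of Rps27 and a target gene of Trp53. It had 50.4, 46.1 and 38.8 CPM in L-gp130 CD8+ libraries, against 27.4, 30.01 and 33.4 CPM as the lowest, median and highest control CD8+ value. All L-gp130 libraries lay above all control libraries, with a log2 fold change of 0.59 (SE 0.087, adjusted p = 0.00144), 1.5-fold.

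Of the 78 mitochondrial members 6 rose in CD8+ cells and 1 fell, where 10.5% of all genes went each way, so the count called was not above the background. Their median log2 fold change was 0.07, and 53 of 78 lay above zero. Mrpl16, a large-subunit protein, had 28.5, 26.8 and 21.4 CPM in L-gp130 CD8+ libraries, against 15.9, 19.1 and 19.8 CPM as the lowest, median and highest control CD8+ value (log2 fold change 0.46, SE 0.0897, adjusted p = 0.00533), with no overlap. Mrpl52 had 74.3, 78.3 and 54.5 CPM in L-gp130 cells, against 44.5, 49.9 and 57.9 CPM in control cells, and its groups overlapped through L-gp130 replicate 3 (log2 fold change 0.45, adjusted p = 0.00775). The other members that rose were Mrpl33 at 0.29, Mrps6 at 0.45, Mrpl34 at 0.33 and Mrpl4 at 0.25, with adjusted p from 0.0127 to 0.0321. Mrps23, a small-subunit protein, was called lower at -0.32 (adjusted p = 0.0191), a call that ended in counts summed from the transcript files, where its log2 fold change was 0.003.

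The CD8+ counts depended on single libraries. Without L-gp130 CD8+ replicate 1 the cytosolic members that fell numbered 16, without L-gp130 CD8+ replicate 3 they numbered 15, and without control CD8+ replicate 6 they numbered 27. Leaving out each of the 9 libraries in turn kept 14 of the 41 calls in every fit, among them those of Rps24, Rps3a1, Rps19, Rps3, Rpl35a, Rpl13a and Rpl7, and the median of the set stayed between -0.21 and -0.14. Without control CD8+ replicates 1 to 3, which stood apart, 27 fell and 5 rose (Rps27l, Rps12, Rpl10, Rpl31 and Rpl41), and without replicates 4 to 6, 36 fell and 1 rose. Rps27l, Mrpl16 and Mrpl52 were called in every such fit, whereas without any 1 of the 3 L-gp130 libraries 3 mitochondrial members rose, not 6.

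**Figure D2:**
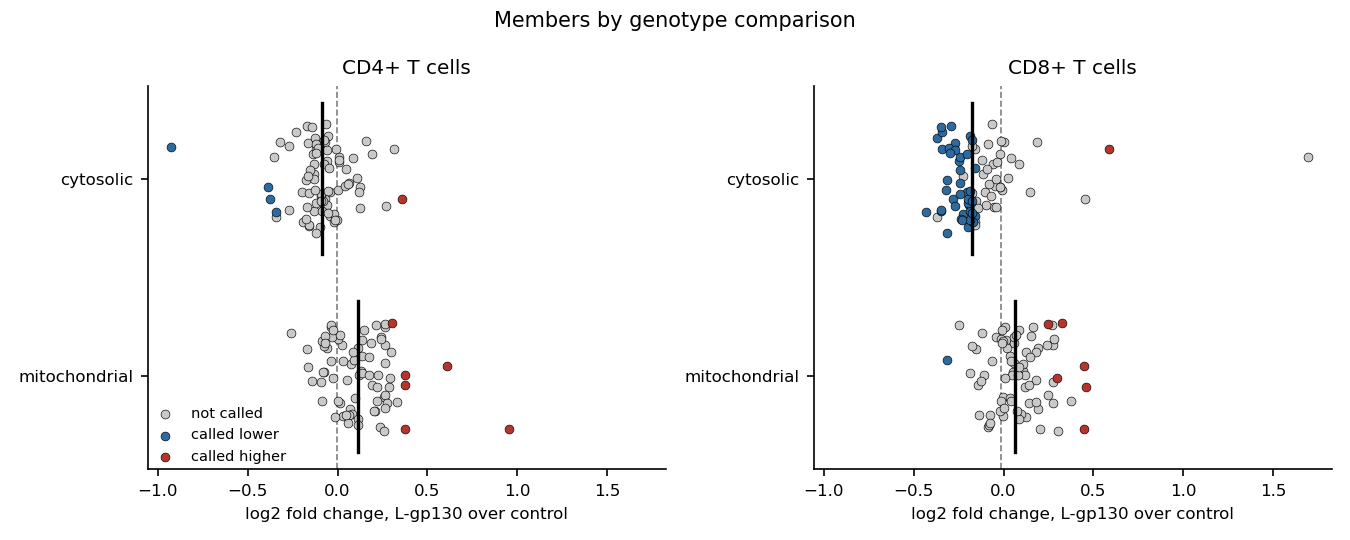
Log2 fold change of L-gp130 over control for each cytosolic and each mitochondrial member in CD4+ and in CD8+ cells; each point is a gene, blue where called lower, red where called higher and grey where not called, solid lines mark the median of each set, and dashed lines that of all genes. The cytosolic points in CD8+ cells lie mostly below zero, with 41 called lower and 1 called higher, and the mitochondrial points lie mostly above zero in both cell types.

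In CD4+ cells mitochondrial members leaned upwards in L-gp130 mice, led by Mrps6 and Mrpl52, and few cytosolic members were called. Of 78 mitochondrial members 6 rose and 0 fell, where 11.1% of all 15016 genes rose and 7.75% fell, so the number called was below the background. By edgeR 22 of the 78 had an unadjusted p under 0.05 in either direction, where 33.4% of all genes did, and DESeq2 called 13 higher and 0 lower, where it called 13.9% of all genes higher and 10.3% lower. Their median log2 fold change was 0.11, against -0.01 for all genes, and 58 of 78 lay above zero. For 11 of them the groups did not overlap in the higher direction, where 7.68% of all genes had that pattern. Markers of other cells differed between the same libraries. Of 4 B cell markers, Cd79b and Ms4a1 were called lower, with a list median of -1.21 and sums of 139 to 354 TPM in L-gp130 and 150 to 579 TPM in control CD4+ cells. Plasma cell markers summed to 119 to 234 TPM in L-gp130 and 55.6 to 107 TPM in control CD4+ cells. Of these 3 markers only Jchain was called, higher by 1.77, and 1 lay below zero at -0.20, with a list median of 0.32. Of 4 dendritic cell markers 1, Siglech, was called lower at -2.17. Their part in the ribosomal protein values was not tested.

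Mrps6, a small-subunit protein, had the largest called change of any member in CD4+ cells. Its lowest, median and highest values were 23.8, 31.6 and 35.0 CPM in L-gp130 CD4+ libraries and 15.01, 16.03 and 17.3 CPM in control CD4+ libraries, with no overlap. The log2 fold change was 0.95 (SE 0.118, adjusted p = 1.77e-04), 1.94-fold. Mrps6 shares 159 bases of exon on the same strand with Slc5a3, a myo-inositol transporter gene, and Slc5a3 also rose in CD4+ cells, by 0.87 (adjusted p = 8.59e-04), but had 0.03 in CD8+ cells (adjusted p = 0.948), where Mrps6 rose by 0.45 (adjusted p = 0.0225).

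Mrpl52 had 59.4, 63.4 and 73.2 CPM as the lowest, median and highest L-gp130 CD4+ value, against 39.7, 40.7 and 45.9 CPM in control CD4+ libraries, and every L-gp130 library lay above every control library (log2 fold change 0.61, SE 0.0757, adjusted p = 1.91e-04). Mrpl40 rose by 0.38 (adjusted p = 0.00819) with no overlap. Mrps36, a protein since assigned to the oxoglutarate dehydrogenase complex rather than to the ribosome, rose by 0.37 (adjusted p = 0.0301). Mrpl18, which in human cells helps to import the 5S ribosomal RNA into mitochondria, rose by 0.38 (adjusted p = 0.0302), and Mrpl34 by 0.31 (adjusted p = 0.0316), and the groups overlapped for both. Mrpl18 shares 141 bases of exon with Tcp1 on the other strand, which rose by 0.27 in CD4+ cells (adjusted p = 0.0158), and the libraries do not keep strand.

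Mrps6, Mrpl52 and Mrpl40 were called whichever of the 12 libraries was left out. The call of Mrpl34 ended in 8 of those 12 fits, and those of Mrps36 and Mrpl18 in 6 each. The mitochondrial members that rose numbered 3 without L-gp130 CD4+ replicate 6 or without control CD4+ replicate 1, 3, 5 or 6, and 15 without L-gp130 CD4+ replicate 4. Without L-gp130 CD4+ replicate 1, which stood apart, 8 mitochondrial members rose and 0 fell, and 2 cytosolic members rose and 4 fell. Without the labelled sex as a term 23 rose, and with the sex read from the sex-linked genes 16, so the number depended on how sex was entered. The share of all genes called in these alternative fits is not given here, so these counts have no background of their own.

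Of 81 cytosolic members 4 fell and 1 rose in CD4+ cells, where 7.75% of all genes fell and 11.1% rose, so fewer were called than in the background. The median log2 fold change was -0.08, and 63 of 81 lay below zero. Leaving out control CD4+ replicate 1 moved that median to 0.03, so its direction depended on that library. It is the only control CD4+ library labelled male, and without it the sex term rested on the L-gp130 libraries alone. The effect of the library and that of the changed sex term cannot be told apart. Rps13, a small-subunit protein, had 594.8, 611.6 and 699 CPM as the lowest, median and highest L-gp130 CD4+ value, against 753.2, 799.3 and 860 CPM in control CD4+ libraries, with no overlap (log2 fold change -0.38, SE 0.0666, adjusted p = 0.00223). Rps27 was lower at -0.93 (adjusted p = 0.0193) and Rps12 higher at 0.36 (adjusted p = 0.00797), both without overlap between groups. With the reads of near-identical gene copies added, described further on, the calls of Rps13, Rps27, Rps12 and Rpl5 ended. Groups did not overlap in the lower direction for 2 cytosolic members, Rps13 and Rps27, where 5.85% of all genes had that pattern. Rpl35a at -0.35 (adjusted p = 0.0205) and Rpl5, which with Rpl11 restrains the Trp53 inhibitor Mdm2, at -0.39 (adjusted p = 0.0362) were lower with overlapping groups. Leaving out L-gp130 CD4+ replicate 6 left 1 cytosolic member called lower, Rps13. The call of Rpl35a ended without L-gp130 CD4+ replicate 6 (adjusted p = 0.083) and without control CD4+ replicate 1 (adjusted p = 0.19).

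**Figure D3:**
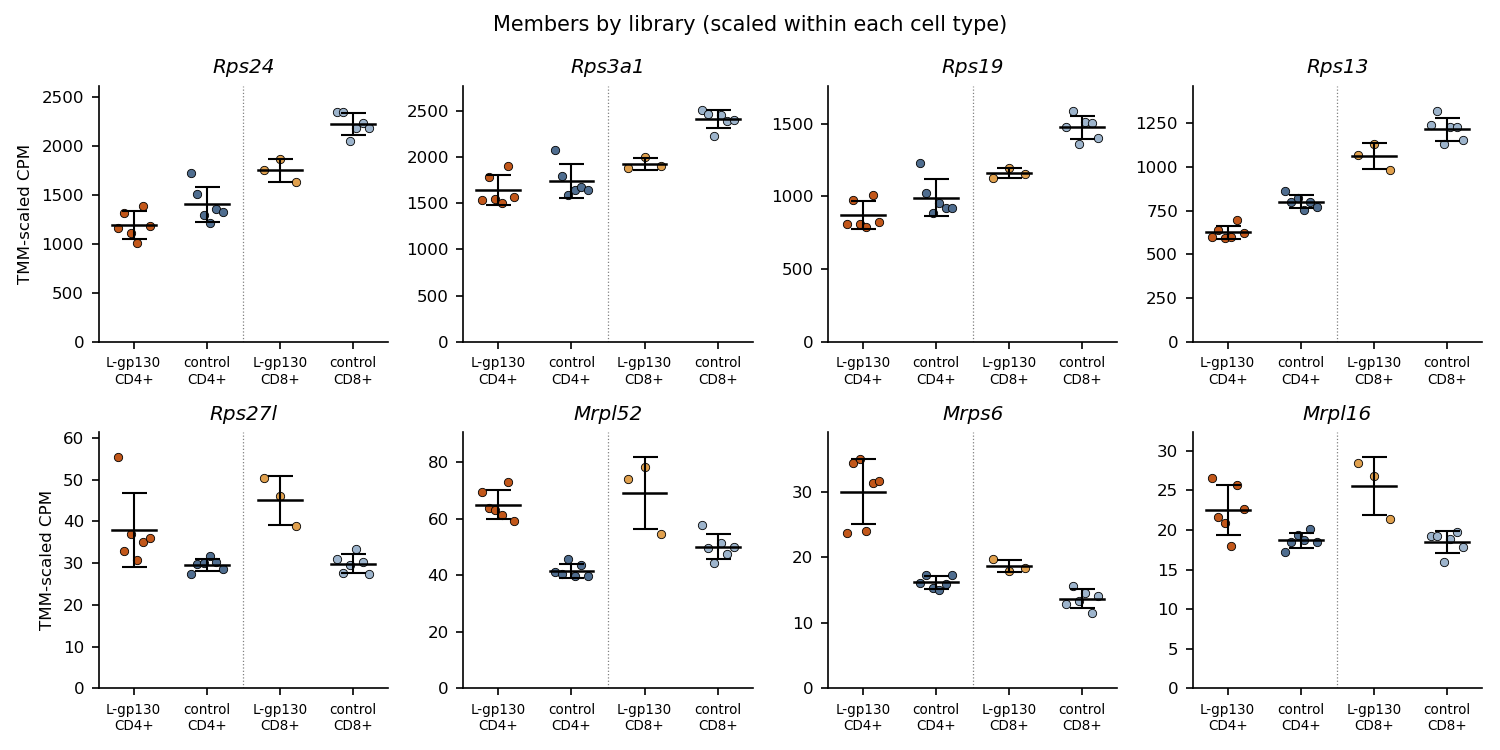
TMM-normalised CPM of Rps24, Rps3a1, Rps19, Rps13, Rps27l, Mrpl52, Mrps6 and Mrpl16 in each library of the 4 groups, with group means and SD; CD4+ and CD8+ libraries were normalised separately. The L-gp130 CD8+ points lie below all control CD8+ points for Rps24, Rps3a1 and Rps19 and above them for Rps27l, Mrps6 and Mrpl16, and the L-gp130 CD4+ points lie above all control CD4+ points for Mrpl52 and Mrps6.

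Cytosolic ribosomal protein genes have many near-identical copies in the mouse genome, mostly processed pseudogenes, and a read that fits several copies can be assigned to any of them. Copies with at least 95% identity over at least 80% of the coding sequence were found for 77 of the 83 cytosolic members, 565 copies that held 9.69% of the reads of these families, and for 15 of the 78 mitochondrial members, 18 copies with 2.04% of the reads. For 13 cytosolic members the copies held more than 10% of the family's reads. The share was 96.6% for Rpl5, 95.2% for Rps27, 94.2% for Rps12 and 94.2% for Rpl12, 86.5% for Rpl10 and 64.9% for Rpl27a. Of the mitochondrial members it was above 10% for Mrpl23, at 85.4%, and Mrpl53, at 61.3%. What is counted as the copy of Mrpl53 is Gm42688, an overlapping gene that shares 695 bases of exon with it on the same strand.

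Adding the reads of the copies to each member, an alternative chosen after seeing the data, ended 4 of the 5 cytosolic calls in CD4+ cells. Rps27 then had a log2 fold change of -0.13 (adjusted p = 0.386), Rps12 had 0.11 (adjusted p = 0.342), Rpl5 had -0.18 (adjusted p = 0.244) and Rps13 had -0.13 (adjusted p = 0.235), and the remaining call was for Rpl35a. For Rps13 the copy was Rps13-ps2, with 1239 to 3467 estimated counts in all 6 L-gp130 CD4+ libraries, 1471 and 1170 in control CD4+ replicates 1 and 2, and 0 in the other control CD4+ libraries and in all CD8+ libraries. Rps13 itself had 10917 to 13985 counts in L-gp130 CD4+ and 23679 to 29835 in control CD4+ libraries, which were deeper. The 6 mitochondrial calls of CD4+ cells were the same genes with the copies added.

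The CD8+ calls did not depend on the copies in this way. With the copies added 43 cytosolic members fell, among them all 41 called without them, and 2 rose, Rps27l and Rps12. Rpl5, with 96.6% of its family's reads on copies, had -0.02 alone (adjusted p = 0.934) and fell by 0.31 with its copies (adjusted p = 0.0025). Rps12 had 0.45 alone (adjusted p = 0.117) and rose by 0.20 with its copies (adjusted p = 0.0385).

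**Figure D4:**
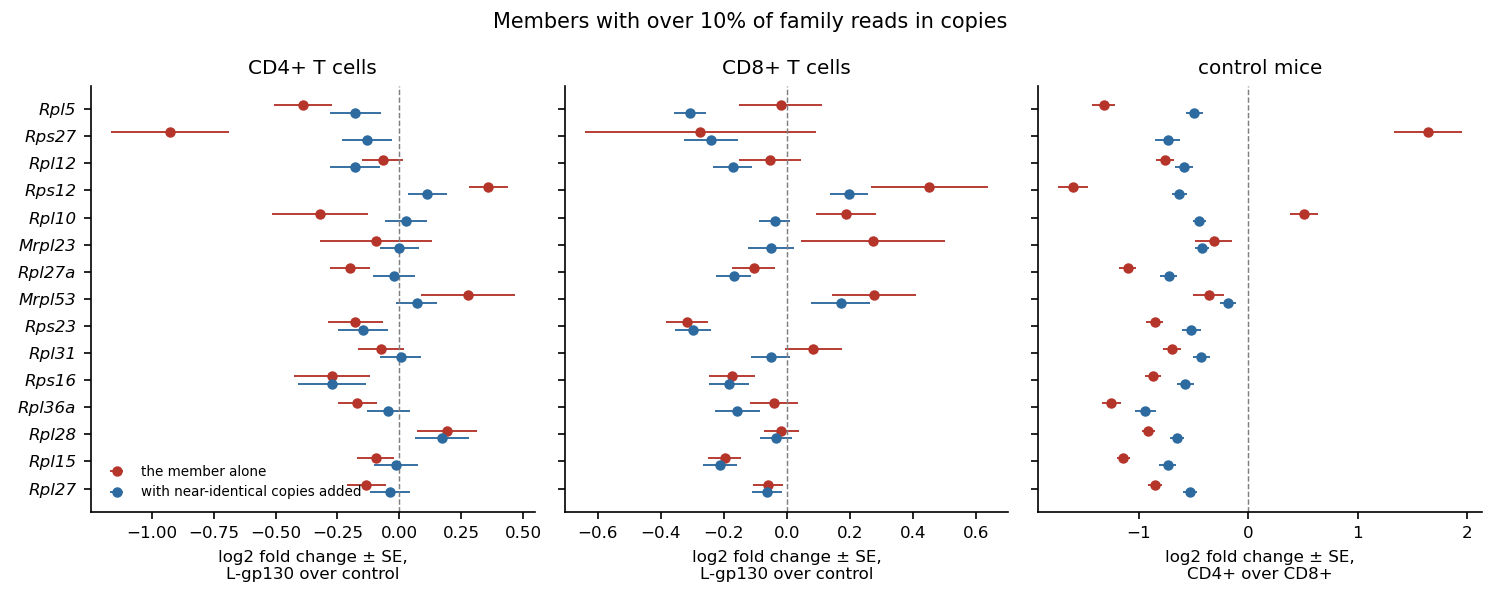
Log2 fold change with its SE for the 15 members whose near-identical copies held more than 10% of the family's reads, from the member's own counts and with the counts of its copies added, for L-gp130 over control in CD4+ cells, the same in CD8+ cells, and CD4+ over CD8+ cells in control mice. In the comparison of cell types the own counts of the 13 cytosolic members spread from -1.60 to 1.64, and with the copies added they lie between -0.94 and -0.43. For Mrpl53 the copy is an overlapping gene on the same strand.

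A fit over all 21 libraries tested whether L-gp130 acted differently in the 2 kinds of T cell, as the CD4+ effect minus the CD8+ effect. No member of either set was called by edgeR, where 1.83% of all 15758 genes were called higher and 1.62% lower. An unadjusted p under 0.05 was found for 7 cytosolic and 6 mitochondrial members, where 17.5% of all genes had one. DESeq2 called 2 cytosolic members lower, Rpl39l and Rps13, and 0 mitochondrial members, where it called 3.03% of all genes in each direction. The cytosolic median of this difference was 0.09 and the mitochondrial one 0.04, against 0.04 for all genes. For Rps24 the difference was 0.02 (SE 0.13, adjusted p = 0.966), for Rpl35a 0.16 (SE 0.14, adjusted p = 0.607), for Rps27l -0.20 (SE 0.163, adjusted p = 0.575) and for Mrps6 0.50 (SE 0.161, adjusted p = 0.0937). The unequal numbers of called cytosolic members in the CD4+ and CD8+ comparisons were thus not matched by a difference that passed the test for any member. The difference was called for Mrps6 without L-gp130 CD4+ replicate 1 or 4, for Rps13 without L-gp130 CD4+ replicate 5 and for Rpl39l without L-gp130 CD8+ replicate 2.

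The members called in both cell types were Mrpl34, Mrpl52 and Mrps6, which rose in both, and Rpl35a and Rps13, which fell in both. Those were 3 of the 6 mitochondrial members that rose in each cell type, and 2 of the 4 cytosolic members that fell in CD4+ cells and of the 41 in CD8+ cells. The CD4+ and CD8+ comparisons use different libraries. How many of all genes were called in both was not counted, so these numbers have no background beside them. The call of Rps13 in CD8+ cells, at -0.20, remained with its copies added (adjusted p = 0.0171), and that in CD4+ cells did not.

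By their medians the members differed more between the cell types than between the genotypes. In both genotypes CD4+ cells had less mRNA of most cytosolic and of many mitochondrial members than CD8+ cells. In L-gp130 mice 75 of 81 cytosolic members were lower in CD4+ cells and 1 was higher, where 22.9% of all genes were lower and 24.9% higher, and 38 of 78 mitochondrial members were lower and 1 higher. In control mice 74 of 81 cytosolic members were lower in CD4+ cells and 2 were higher, where 27.2% of all genes were lower and 24.3% higher, and 49 of 78 mitochondrial members were lower and 0 higher. The median log2 fold change of CD4+ over CD8+ cells was -0.59 for cytosolic and -0.22 for mitochondrial members in L-gp130 mice, against 0.02 for all genes, and -0.68 and -0.27 in control mice, against -0.02 for all genes. The groups did not overlap in the lower direction for 69 cytosolic members in L-gp130 mice, where 18.1% of all genes had that pattern, and for 73 in control mice, where 19.2% had it. In the higher direction they did not overlap for 1 member of each set in L-gp130 mice, Rps27 and Mrps6, where 19.6% of all genes had that pattern, and for 1 cytosolic member in control mice, Rps27, where 18.3% had it.

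Rpl15, a large-subunit protein whose start carries the longest pyrimidine run printed above, had the smallest adjusted p in both genotypes. In L-gp130 mice its lowest, median and highest values were 492.4, 561.3 and 630.8 CPM in CD4+ libraries, against 1066, 1180 and 1297 CPM in CD8+ libraries, a log2 fold change of -1.06 (SE 0.0686, adjusted p = 3.48e-10). In control mice they were 583.7, 595.1 and 657.6 CPM in CD4+ libraries, against 1314, 1348 and 1454 CPM in CD8+ libraries, a log2 fold change of -1.14 (SE 0.0628, adjusted p = 1.31e-11). No CD4+ library reached any CD8+ library in either genotype. With the copies of Rpl15 added its log2 fold change was -0.55 in L-gp130 and -0.73 in control mice, both called.

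Rpl28 was lower at -0.82 in L-gp130 and -0.91 in control mice, and at -0.52 and -0.65 with its copies added, which held 17.6% of its family's reads. Rpl10a was lower at -0.89 in both genotypes. In control mice Rps27 appeared higher in CD4+ cells at 1.64 and Rpl10 at 0.51, and both turned lower with the copies added, at -0.73 and -0.44. Rps27 turned likewise in L-gp130 mice, where it had 0.88 alone and -0.57 with its copies, and where the call from its own counts ended in 9 of the 21 fits that left out a library. With the copies added 77 cytosolic members were lower and 0 higher in L-gp130 mice, and 76 were lower and 0 higher in control mice.

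Mitochondrial members differed less than cytosolic ones. Mrpl33 was lower in CD4+ cells at -0.43 in L-gp130 (adjusted p = 5.12e-06) and at -0.48 in control mice (adjusted p = 1.92e-07), and Mrpl30 at -0.52 and -0.50. Mrpl34 was lower at -0.62 in L-gp130 and -0.65 in control mice, and Mrpl12, which also binds the mitochondrial RNA polymerase, at -0.51 and -0.57. Mrps6 was the mitochondrial member that was higher in CD4+ cells of L-gp130 mice, at 0.57 (SE 0.122, adjusted p = 7.47e-04), with 22.7, 30.9 and 34.0 CPM as the lowest, median and highest CD4+ value, against 20.9, 19.0 and 19.1 CPM in the 3 CD8+ libraries, with no overlap. In control mice it had 0.07 (adjusted p = 0.613).

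Other cell types moved with this comparison. All 6 erythroid and all 4 B cell markers were higher in CD4+ than in CD8+ cells in both genotypes, with medians in control mice of 5.45 and 3.97 on the log2 scale. Dendritic cell markers were higher in CD4+ cells for 2 of 4 in L-gp130 and 4 of 4 in control mice, and monocyte-macrophage markers for 3 of 4 in each genotype. Their part in the lower ribosomal protein levels of the CD4+ libraries was not tested, and the way of selection and the cell type cannot be told apart. Over nuclear-encoded coding genes without haemoglobin, the cytosolic members held 22.1% to 25.7% of TPM in L-gp130 CD4+ and 24.5% to 27.8% in control CD4+ cells, below the 29.3% to 32.0% of L-gp130 and the 31.9% to 35.0% of control libraries from CD8+ cells.

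**Figure D5:**
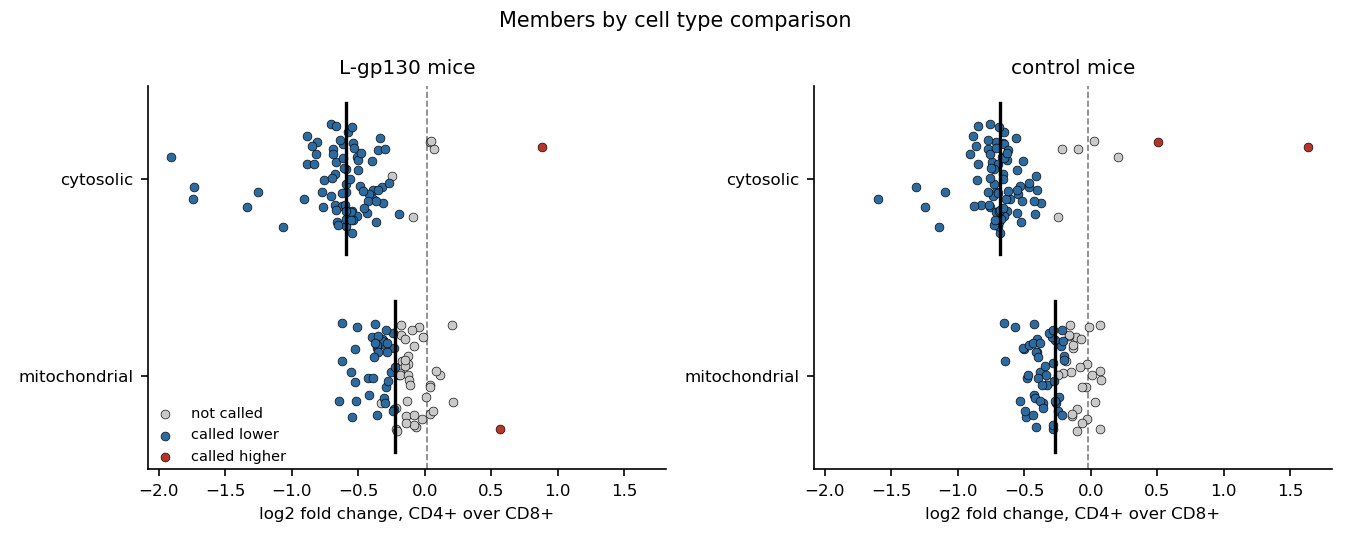
Log2 fold change of CD4+ over CD8+ cells for each cytosolic and each mitochondrial member in L-gp130 and in control mice; each point is a gene, blue where called lower, red where called higher and grey where not called, solid lines mark the median of each set, and dashed lines that of all genes. Most points lie below zero, the cytosolic ones farther than the mitochondrial ones, with medians of -0.59 and -0.22 in L-gp130 and -0.68 and -0.27 in control mice.

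Some ribosomal proteins have a paralog, and as means over the 21 libraries 4 such paralogs had lower levels than their partners. Rpl22l1 had 482 TPM and Rpl22 1918 TPM. Rps27l had 165 TPM and Rps27 519 TPM, although most reads of the Rps27 family were on its copies. In L-gp130 CD8+ cells Rps27l had 236 TPM and Rps27, without its copies, 223 TPM. Rps27 had 290.5 to 620.1 counts in those libraries and its largest copy, Rps27rt, 22296.2 to 30538.5, so the order of the 2 paralogs there depends on how reads were assigned. Rpl7l1 had 45.3 TPM and Rpl7 1806 TPM, and Rpl39l, known from the testis, had 1.76 TPM and Rpl39 1855 TPM. Rpl22l1 had a log2 fold change of -0.01 in CD8+ cells (adjusted p = 0.93), where Rpl22 fell, and 0.00 in CD4+ cells (adjusted p = 0.985). Rpl39l had 1.77, 0.405 and 2.06 CPM in L-gp130 CD8+ libraries, against 0.108, 0.423 and 0.881 CPM as the lowest, median and highest control CD8+ value, which overlapped (log2 fold change 1.70, SE 0.564, adjusted p = 0.0556). Rpl3l, known from heart and skeletal muscle, had 10.3 counts over all 21 libraries and Rpl10l, known from the testis, had 0, and both were left untested. Rps4l, a pseudogene partner of Rps4x here and no member, rose by 0.86 in CD8+ cells (adjusted p = 0.0159), and Rps4x had -0.16 (adjusted p = 0.063).

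Genes that make, regulate or use ribosomes were read from lists beside the members. In CD8+ cells, where 10.5% of all genes rose and 10.5% fell, 7 of 20 cytosolic ribosome assembly genes rose and 0 fell, beside the 41 cytosolic ribosomal protein genes that fell. The assembly genes were led by Nop2, a methyltransferase of ribosomal RNA, at 0.53, Polr1b, a subunit of RNA polymerase I, at 0.50, and Ppan at 0.46. Of 13 mRNAs encoded by mitochondrial DNA 8 rose and 0 fell, with a list median of 0.34, led by the complex I subunits mt-Nd5 at 0.39, mt-Nd6 at 0.52 and mt-Nd4 at 0.40. Their share of TPM was 9.66% to 10.8% in the L-gp130 libraries and 7.44% to 8.94% in the control libraries of CD8+ cells. Of 14 other mRNAs with terminal oligopyrimidine starts, Tpt1 fell by 0.51 and Eef1a1, the elongation factor that brings aminoacyl-tRNA to the ribosome, by 0.19, and none rose. Of 9 ribosomal proteins outside the symbol rule Fau, whose small-subunit protein is made fused to a ubiquitin-like one, fell by 0.24. The shares of both lists that fell were near that of all genes. Of 12 mitochondrial translation factors Tufm, the mitochondrial elongation factor, rose by 0.34, and of 18 mitochondrial ribosome assembly genes the helicase Ddx28 rose by 0.44 and the methyltransferase Mrm1 fell by 0.48. Myc rose by 0.64, Mycn fell by 1.04 and Rptor, the mTOR complex subunit that binds its substrates, fell by 0.26.

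In CD4+ cells, where 11.1% of all genes rose and 7.75% fell, the numbers called in these lists were near or below that background, with 2 of 20 cytosolic assembly genes higher (Nhp2 at 0.32 and Nolc1 at 0.20) and 0 of 13 mitochondrial DNA mRNAs called, and Tufm at 0.28 and Ddx28 at 0.54 higher as in CD8+ cells. Of the 14 mRNAs with terminal oligopyrimidine starts 2 rose, Nap1l1 at 0.28 and the poly(A)-binding protein gene Pabpc1 at 0.22, and none fell, and Rptor fell by 0.34. Proliferation genes rose in both cell types, 9 of 10 in CD8+ cells with a median of 1.198 and 10 of 10 in CD4+ cells with a median of 1.75. T cell markers fell in CD8+ cells beside the cytosolic ribosomal proteins, 4 of 7, led by Cd8b1 at -0.67 and Cd8a at -0.36. Of 4 dendritic cell markers Itgax rose by 1.16 in CD8+ cells, whereas the other 3 lay below zero and were not called. The median of that list was -0.15. Plasma cell markers summed to 79.7 to 475 TPM in L-gp130 and 25.6 to 118 TPM in control CD8+ cells. The part of proliferation and of these markers in the ribosomal protein changes was not tested. Of the listed ribosome genes only Polr1b differed between the cell types in its response, at -0.49 for the CD4+ minus the CD8+ effect.

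Between cell types most listed genes of the cytosolic ribosome were lower in CD4+ cells, like its proteins. In control mice, where 27.2% of all genes were lower, 13 of 14 other mRNAs with terminal oligopyrimidine starts, 16 of 20 cytosolic assembly genes and 6 of 9 ribosomal proteins outside the rule were lower in CD4+ cells, among them Rack1, a scaffold on the small subunit, at -0.67. In L-gp130 mice, where 22.9% of all genes were lower, the counts were 11 of 14, 15 of 20 and 8 of 9. Of 12 mitochondrial translation factors 6 were lower and 1 higher in CD4+ cells of L-gp130 mice, and 7 were lower and 0 higher in control mice. The 13 mitochondrial DNA mRNAs did not share this direction: 1 was lower and 0 higher in CD4+ cells of L-gp130 mice, and 0 were lower and 3 higher in control mice.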

How the data were processed

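Polyadenylated RNA of 21 splenic T cell libraries was sequenced unstranded as paired ends, per the labels' protocols. The submitters' processing notes name Salmon 1.5.2, Trimmomatic 0.39, cutadapt 3.4, edgeR 3.34.1 and the GRCm38 build, without their roles, and the sources used here give no annotation release. Gene tables with estimated counts, 1 for CD4+ and 1 for CD8+ cells, were deposited, and each library has a deposited transcript file which, per the file headers, holds Salmon's estimated counts (reads) and TPM. Gene tables of each cell type were scaled to transcript length separately, per the values in the files, so genotype comparisons used each table alone. Comparisons between cell types and the cell type by genotype term used Salmon's estimated counts summed per gene, and levels used the deposited TPM summed per gene.

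Tests on the rounded estimated counts used R 4.3.3 and edgeR 4.0.16 (robust quasi-likelihood F test, 2-sided, TMM factors, filterByExpr, labelled sex as covariate, Benjamini-Hochberg adjustment over all genes tested, called at 0.05). SE was obtained by dividing the log2 fold change by the square root of its F statistic. Alternatives were other normalisations, DESeq2 1.42.0, other filters, sex terms and count sources, equal depth, reads of copies added and libraries left out. The genotype test of each cell type and the cell type by genotype term were checked on simulated data. The comparisons between cell types were not.

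Named genes were the 5 called members of smallest adjusted p in each direction, set and comparison, the 3 largest and 3 lowest called changes by genotype, the 3 most abundant members of each set, and paralogs with their partners. Members and lists were chosen with earlier results of these data known. Sequences are from RefSeq, GRCm38.p6.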

Additional observations from a re-analysis of the deposited data

How the results depend on the processing

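The lowest members had few counts: Rpl39l lay near 1 CPM, and Rpl3l and Rpl10l, with 10.3 and 0 counts over all 21 libraries, could not be tested. Replicate numbers were checked for pairing of L-gp130 with control libraries within a cell type only. The correlations of same-numbered libraries ran from -0.361 to 0.263 in CD4+ and 0.041 to 0.315 in CD8+ cells. Pairing of CD4+ with CD8+ libraries by mouse was not tested, and the main fit over all 21 libraries treated them as independent. With the replicate block, CD4+ cells had 4 mitochondrial members higher, and 1 cytosolic member higher and 3 lower, and CD8+ cells had 44 cytosolic members lower and 4 mitochondrial members higher.

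In CD4+ cells the cytosolic members called higher numbered 3 without a sex term, 2 with sex from the reads, 0 with named pseudogenes or copies added, and 2 without both L-gp130 CD4+ replicate 1 and control CD4+ replicate 5; those called lower numbered 1 with copies. Mitochondrial members called higher numbered 13 with DESeq2, 23 without a sex term and 16 with sex from the reads. For those sex settings the share of all genes called is not given here. In CD8+ cells 2 cytosolic members were called higher with DESeq2, no filter, the other count source, named pseudogenes or copies, and 5 without control CD8+ replicates 1 to 3, where 27 were lower. With the other count source 10 mitochondrial members were higher and 0 lower, and Mrps23 reversed to 0.003. For the cell type by genotype term DESeq2 called 2 cytosolic members lower, and 1 mitochondrial member was higher without both L-gp130 CD4+ replicate 1 and control CD4+ replicate 5. Between cell types the cytosolic members called higher in CD4+ cells numbered 0 in L-gp130 mice with no filter, the other count source, copies, or without both those libraries, and in control mice 1 with named pseudogenes and 0 with copies. Rpl10 reversed to -0.44 with either, Rps27 to -0.73 in control and -0.57 in L-gp130 mice with copies.

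Leaving out 1 library gave, in CD4+ cells, 0 to 2 cytosolic members higher and 1 to 6 lower, and 3 to 15 mitochondrial members higher. In CD8+ cells it gave 1 to 2 cytosolic members higher and 15 to 40 lower, and 3 to 7 mitochondrial members higher and 0 to 1 lower. For the difference between cell types 0 to 1 cytosolic members were lower and 0 to 1 mitochondrial members higher. Between cell types in L-gp130 mice 0 to 1 cytosolic and 1 to 2 mitochondrial members were higher in CD4+ cells.

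As shares of gene counts the cytosolic members held 7.30% in L-gp130 CD4+, 7.63% in control CD4+, 10.3% in L-gp130 CD8+ and 11.3% in control CD8+ cells, and the mitochondrial ones 0.241%, 0.22%, 0.274% and 0.25%. As shares of nuclear-encoded coding TPM the cytosolic members held 23.6%, 25.5%, 30.7% and 33.2%, and the mitochondrial ones 0.537%, 0.477%, 0.548% and 0.476%, in the same order. The cause of these shifts was not tested.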
